A study of Homo sapiens with 17 samples.

Results

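The microRNA miR-101 is made from a pair of hairpins, hsa-mir-101-1 and hsa-mir-101-2, and their small RNA reads were followed here through 17 libraries of the human colon carcinoma cell line HCT116. The 2 hairpins are 2 of the 1282 in the deposited table of rescue experiments and 2 of the 294 in the deposited table of parental and deletion cells. They were chosen by their measured values: in cells rescued with P351A DGCR8 they were not below cells rescued with wild-type DGCR8, while most hairpins were. That difference is therefore given below as a description, with no test. Both hairpins passed the filter on low values in the rescue table, a mean of 10 or more scaled reads, which 336 hairpins passed.

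A microRNA starts as a hairpin in a long primary transcript. Microprocessor, the nuclear complex of the RNase Drosha and its RNA-binding partner DGCR8, cuts the hairpin free, and Dicer then removes the terminal loop to leave the mature strands. DGCR8 binds heme through a cysteine next to a proline, the residues changed in C352A and P351A, and contacts the upper part of the hairpin, where a UGU motif at the base of the loop is known to help place the cut. miR-101 is known for repressing EZH2, the histone H3 lysine 27 methyltransferase, in epithelial tumours.

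The series asked, by its title, how hemin bears on the recognition of the loop of primary microRNAs. Parental HCT116 cells and DGCR8ΔCTT cells, in which CRISPR-Cas9 removed the CTT domain of DGCR8 as a functional knockout, had 1 library each. DGCR8ΔCTT cells were also given a mock rescue, wild-type (WT) DGCR8, C352A DGCR8, P351A DGCR8, or P351A DGCR8 together with a treatment labelled ALA, with 3 libraries in each of these 5 groups. All 15 rescue libraries thus carry the CTT deletion. The labels do not state whether the deletion line was 1 clone, how much DGCR8 each rescue made, or the dose and duration of ALA. No label ties replicates to separate cultures, and the p-values below reflect only the spread among libraries, which may be technical.

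The sequences that define the pair are printed first because they fix what the reads can tell apart. Mature sequences and hairpins are from RefSeq on GRCh38.p14. Capitals mark the seed, bases 2 to 8, in the 3 mature strands.
hsa-miR-101-3p: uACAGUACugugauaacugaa
hsa-miR-101-5p: cAGUUAUCacagugcugaugcu
hsa-miR-101-2-5p: uCGGUUAUcaugguaccgaugc
The 3p strand of 21 bases is the main product, miR-101, and both hairpins hold it letter for letter. The 5p strands differ between the hairpins and match in 16 of 23 aligned columns (69.6%). In the whole hairpins below, capitals mark the shared 3p strand.
hsa-mir-101-1: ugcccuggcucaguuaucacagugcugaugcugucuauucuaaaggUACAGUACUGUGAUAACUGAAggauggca
hsa-mir-101-2: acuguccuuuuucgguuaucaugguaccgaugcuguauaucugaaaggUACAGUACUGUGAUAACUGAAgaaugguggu
The hairpins are 75 and 79 bases long and match in 61 of 80 aligned columns (76.2%). Outside the 3p strand they are alike in part but not identical.

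The genes lie on different chromosomes. hsa-mir-101-1 is at chr1:65058434-65058508 on the minus strand of GRCh38, in intergenic sequence by GENCODE 29, with JAK1 91930 bases below it and AK4 89041 bases above it. Its nearest annotated microRNA gene, MIR3671, is 592 bases away and is not analysed here. hsa-mir-101-2 is at chr9:4850297-4850375 on the plus strand, inside an intron of RCL1, a gene for an RNA processing protein of the ribosome pathway, between exons 8 and 9 of 9 in transcript RCL1-204 and on the same strand. An antisense gene, AL158147.1, overlaps the second hairpin at chr9:4850299-4850373.

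Both hairpins hold a UGU at the 5′ base of the loop. The stretch between the mature arms is shown next with 2 bases of each arm and UGU in capitals.
hsa-mir-101-1 loop: cUGUcuauucuaaaggua
hsa-mir-101-2 loop: gcUGUauaucugaaaggua
The UGU begins at base 32 of the first hairpin and base 34 of the second. In hsa-mir-101-1 it overlaps the end of the 5p arm, and in hsa-mir-101-2 it lies wholly between the arms. The search used the letters UGU on the RNA strand only, and its window was widened by 2 bases on each side after these sequences had been seen. Such a UGU, with at least 1 base between the arms, was present in 308 of 745 RefSeq hairpins with both arms placed (41.3%) and in 104 of the 194 tested hairpins that could be placed (53.6%). Counting only motifs wholly between the arms, the shares were 33.7% and 40.2%. The motif is therefore common, and a match is a description of letters, not of a site in use. Only 57.7% of the tested hairpins could be placed, so their responses were not split by UGU.

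The folds predicted by RNAfold were alike in outline. The minimum free energy was -36.2 kcal/mol for hsa-mir-101-1 and -30.0 kcal/mol for hsa-mir-101-2, with 26 and 31 base pairs. Each fold had a terminal loop of 12 bases, and 20 of the 21 bases of the 3p strand were paired in each. The arms were 14 and 15 bases apart, against a median of 16 over the placed RefSeq hairpins.

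No other mature strand in the RefSeq table, of 2370 names, has the seed of miR-101-3p at bases 2 to 8. One strand shares bases 2 to 7, that of miR-144, and is shown with its seed in capitals.
hsa-miR-144-3p: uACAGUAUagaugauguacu
The hairpin mir-144 is known as a red blood cell microRNA. It was at 0 in all 3 mock libraries, reached at most 6.15 scaled reads elsewhere in the rescue libraries, and was too low to test. Reads with a seed like that of miR-101 were thus few outside the rows of the mir-101 hairpins.

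Those rows are a single signal. Across the 17 libraries the count of hsa-mir-101-2 differed from that of hsa-mir-101-1 by 0 to 6 reads, at most 1.08% of the reads of hsa-mir-101-1. The counts were equal in 6 libraries, higher for the first hairpin in 8 and higher for the second in 3. The deposited files therefore cannot say which gene made the reads, and values below are those of hsa-mir-101-1 unless both are named. How the authors' counting placed a read that matches both hairpins is not known here.

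Values in the rescue table are reads multiplied by 1 scale factor per library, called scaled reads here. The mock libraries, named a, b and c because their columns could not be tied to replicate numbers, had 594, 505 and 466 scaled reads, from 594, 157 and 186 reads. Libraries of cells rescued with WT DGCR8 had 1947, 1146 and 1056 scaled reads, from 1459, 665 and 740 reads. Libraries with C352A DGCR8 had 288, 293 and 304 scaled reads, from 639, 132 and 216 reads. The C352A libraries were the lowest of the 15 and differed least among themselves, and the WT libraries lay above all mock libraries. Libraries with P351A DGCR8 had 2039, 2735 and 2323 scaled reads, from 4449, 6750 and 4759 reads. Libraries with P351A DGCR8 and ALA had 2506, 5434 and 4253 scaled reads, from 2336, 4731 and 5534 reads. Every P351A library lay above every WT library, and the P351A and P351A with ALA libraries overlapped.

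**Figure D1:**
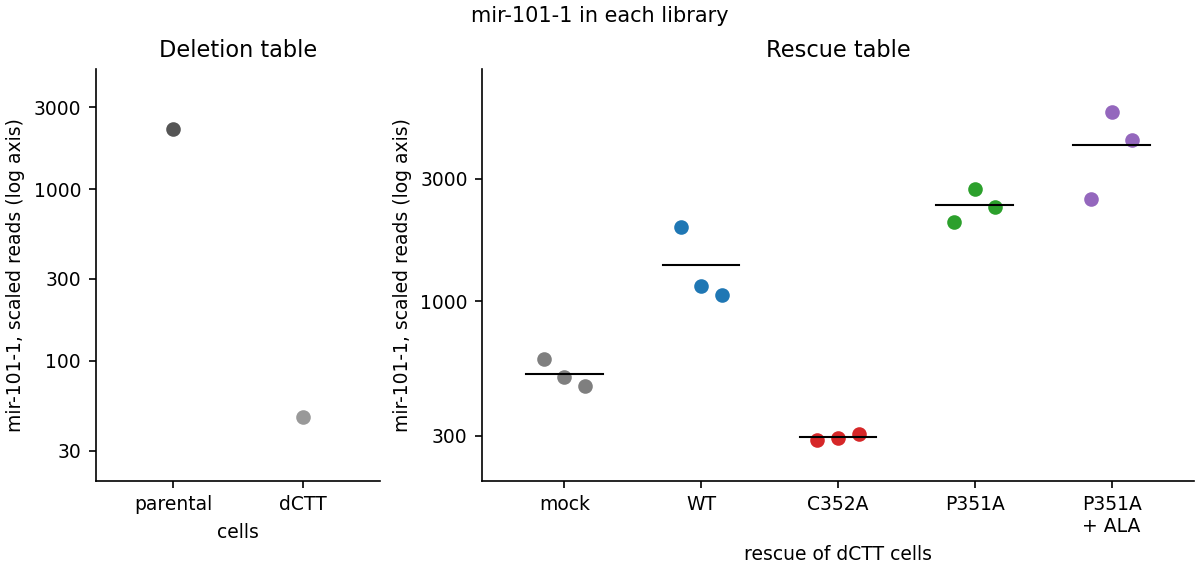
Scaled reads of hsa-mir-101-1 on a log axis in each library, with the parental and DGCR8ΔCTT cells in a panel of their own because the tables were scaled separately; points are libraries and lines are group means. The C352A libraries sit at 288 to 304 scaled reads, below the mock libraries at 466 to 594, and the P351A libraries at 2039 to 2735 lie above the WT libraries at 1056 to 1947.

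The group means put the rescues in the order C352A, mock, WT, P351A, and P351A with ALA. They were 295 ± 7.91, 522 ± 65.5, 1383 ± 490.3, 2365 ± 349.8 and 4064 ± 1473 scaled reads (SD, n = 3 each). Neighbouring groups did not overlap in this order except the last pair. The highest library exceeded the lowest by 1.05 times within C352A, 1.27 times within mock, 1.34 times within P351A, 1.84 times within WT and 2.17 times within P351A with ALA. Among the 336 tested hairpins, the order C352A below mock below WT below P351A, with no overlap, occurred in 2 (0.595%), the mir-101 hairpins themselves. That search was made after their values had been seen, and its last step was used to choose them.

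As a share of all hairpin reads in the library, the order was different. The mean was 665 ± 41.3 reads per 1000000 in C352A, 961 ± 67.0 in WT, 1022 ± 49.1 in mock, 2817 ± 840 in P351A with ALA and 2852 ± 225 in P351A (SD, n = 3 each). Mock and WT libraries overlapped on this scale, unlike on the authors' scale. C352A libraries stayed below, and the 6 libraries with P351A DGCR8 stayed above all others.

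**Figure D2:**
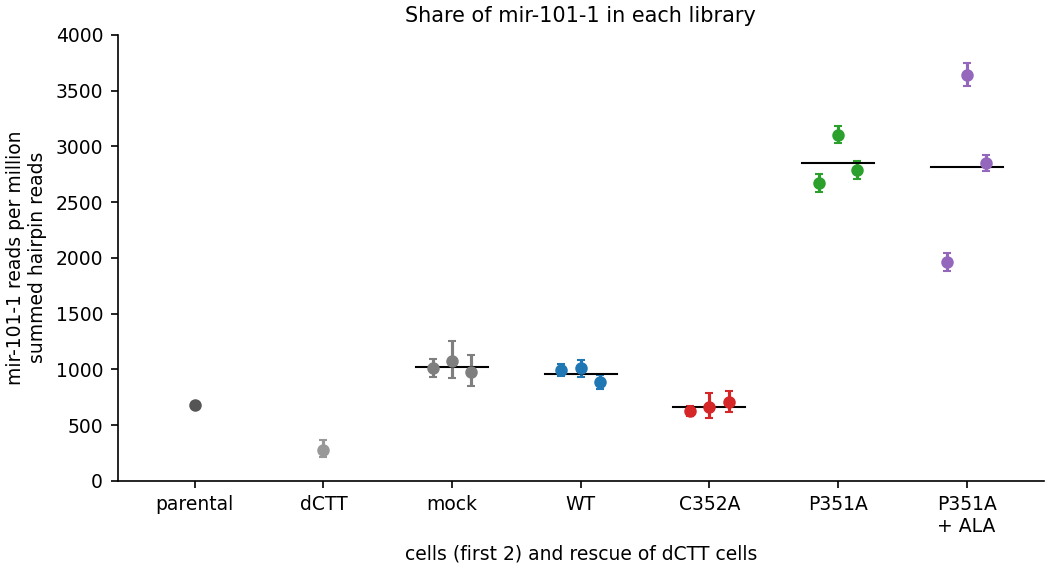
Reads of hsa-mir-101-1 per 1000000 summed hairpin reads in each of the 17 libraries, with 95% Wilson intervals that cover counting error only and lines at group means. The C352A libraries have the lowest shares of the 5 rescue groups, mock and WT overlap, and the 6 libraries with P351A DGCR8 have the highest shares.

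Facts of the libraries bear on these values. Mock libraries held 146023 to 587214 summed hairpin reads and C352A libraries 199133 to 1023184. WT libraries held 660126 to 1470755, overlapping C352A, while P351A libraries at 1666688 to 2175294 and those with ALA at 1191542 to 1941805 were all deeper than the mock and C352A libraries. The libraries also fell into a pair of sets by mir-373, a microRNA best known from embryonic stem cells. It had 0 reads in all 6 libraries with P351A DGCR8, which allows up to 3 reads in each, and 1038 to 5176 scaled reads in the other 9. Differences between P351A or P351A with ALA and the mock, WT or C352A libraries cannot be told apart from whatever else separates these sets. The 7 hairpins listed as colon epithelial markers had reads in every group, but mir-21 made up most of their sum. Its mean was 113425 scaled reads over the rescue libraries. The others ran from 12.7 (mir-215) to 751 (mir-141), below mir-126, listed for endothelium, at 812. The list is therefore a weak check of the cell line. Of 19 listed markers of blood, liver, muscle, stroma, endothelium and nerve, 13 were in the table. Their summed level was lowest in C352A (1096 to 1216 scaled reads) and mock (1171 to 1689). WT libraries had 1933 to 3668, P351A libraries 2352 to 3514 and those with ALA 1498 to 2561. The sum was mostly mir-126, with a mean of 812 scaled reads over the rescue libraries, and the mir-9 copies, with 367 for mir-9-1. The mir-9 rows were nearly equal, so the sum counts that signal once for each copy. In P351A minus WT mir-9-1 was at 2.16 and mir-126 at -2.71. Of the markers with few reads, mir-122 was at 0 in mock, C352A and P351A with ALA, and mir-223 at 0 in P351A and P351A with ALA. The part of these differences in the results was not tested, and reads of small RNA give no check of DGCR8 itself.

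Parental and DGCR8ΔCTT cells were compared as a description, with 1 library each and no replicate. Whether the CTT deletion itself made the difference was not tested. hsa-mir-101-1 had 2239 scaled reads in parental cells, from 3489 reads, and 47 reads in DGCR8ΔCTT cells. The level was 47.6-fold higher in parental cells, with an exact counting interval from 35.7 to 65.0. Most of the listed hairpins behaved the same way, as 269 of 294 (91.5%) were more than 2-fold higher in parental cells. The lowest parental value above 0 was 43 reads, against 1 in DGCR8ΔCTT cells. Hairpins may thus have been listed by their parental level, which was not tested and would favour this count and the median. On the log2 scale the difference was 5.54 for hsa-mir-101-1, the same as the median of all 294 listed hairpins. The shares were 681 reads per 1000000 summed hairpin reads (Wilson interval 659 to 704) and 278 (209 to 370), a ratio of 2.45. The libraries held 5122793 and 168798 summed hairpin reads.

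The mutants were next compared with WT DGCR8 as a description. P351A minus WT was 0.82 ± 0.31 for each hairpin, a difference of means of log2(scaled reads + 1) with its standard error, or 1.76-fold. The median over the 336 hairpins was -0.95, and 66 of them had a value above 0. hsa-mir-101-1 was the 10th from the top and hsa-mir-101-2 the 9th, between mir-455 at 1.09 and mir-107 at 0.82. The P351A libraries lay above all WT libraries for 16 of the 336 hairpins (4.76%), the members included.

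C352A gave the opposite picture for the same hairpins. C352A minus WT was -2.17 ± 0.31 for hsa-mir-101-1, 4.50-fold lower, against a median of -1.76. All 18 alternatives kept the direction, and 4 shrank the size by more than 1 SD. It was -0.73 after centring on the median hairpin, -0.53 on equal totals, -0.51 with DESeq2 and -0.27 with edgeR. The other 14, with centring on hairpins made without Microprocessor among them, kept it within 1 SD. C352A libraries lay below all WT libraries for 66.4% of hairpins. P351A minus C352A was 2.99 ± 0.31, 7.94-fold, against a median of 0.56, and the P351A libraries were above all C352A libraries for 47.6% of hairpins. These comparisons share libraries and are set side by side as values only.

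Against the mock rescue, WT DGCR8 gave a difference of 1.36 ± 0.31, 2.56-fold, close to the median of 1.13. It was 1.38 after centring on hairpins made without Microprocessor, 0.64 after centring on the median hairpin and -0.089 on equal totals. On the authors' scale 57.1% of hairpins had all WT libraries above all mock libraries. P351A minus mock was 2.18 ± 0.31, 4.52-fold, against a median of -0.03, and 29.8% of hairpins had P351A wholly above mock. hsa-mir-101-1 was 148th from the top of 336 in WT minus mock and 18th in P351A minus mock.

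Comparisons between groups other than WT and P351A were tested, with 1 estimate of the spread over all 15 rescue libraries. hsa-mir-101-1 was 1.76-fold lower in C352A than in mock cells, a log2 difference of -0.81 ± 0.31, and did not pass the test (limma, Benjamini-Hochberg adjusted p = 0.0694). The value for hsa-mir-101-2 was -0.81 (limma, adjusted p = 0.0696). All C352A libraries lay below all mock libraries, as they did for 39.9% of hairpins, and 14.3% of hairpins were called lower by limma. The median difference of all hairpins was -0.66, near that of the pair.

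P351A with ALA was higher than mock. hsa-mir-101-1 rose 7.44-fold, a log2 difference of 2.90 ± 0.31 (limma, adjusted p = 6.48e-07), and hsa-mir-101-2 by the same 2.90. The median was 0.87, 49.4% of hairpins were called higher, and 46.7% had all treated libraries above all mock libraries. Against C352A the rise was 13.1-fold, 3.71 ± 0.31 (limma, adjusted p = 2.12e-08), with a median of 1.51. Here 66.4% of hairpins were called higher and 69.9% did not overlap. hsa-mir-101-1 ranked 23rd and 12th from the top of 336 in these comparisons, and hsa-mir-101-2 22nd and 13th. Both comparisons cross the sets that differ in mir-373. The cells with ALA also carry the P351A rescue whose level chose the pair, so that choice may favour these ranks and p-values.

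The addition of ALA to P351A cells was compared within the set that lacked mir-373. The difference was 0.72 ± 0.31, 1.65-fold, with the libraries overlapping, and the median of all hairpins was 0.81. For 60.1% of hairpins all libraries with ALA were above all P351A libraries. The direction of this difference turned with the scaling: it was -0.06 on equal totals and -0.42 after centring on the median hairpin. P351A with ALA minus WT was 1.54, 2.91-fold, against a median of -0.22, and 13.7% of hairpins had the treated libraries wholly above WT.

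Other microRNAs known to repress EZH2 were read beside miR-101, from a list of 21 hairpins of which 15 could be tested. The list holds the let-7 family, miR-26, miR-138, miR-124 and miR-214. In P351A with ALA against mock, 15 of 15 rose (limma, adjusted p under the threshold of 0.05), beside 49.4% of all hairpins, with a median of 2.27 against 0.87 for all. Against C352A, 14 of 15 rose, beside 66.4% of all, with a median of 2.60 against 1.51. After centring on the median hairpin, 11 of 15 rose over mock, beside 85 of all 336, and 10 of 15 over C352A, beside 77 of 336. There and on equal totals mir-26b, named for going the other way, was lower than in C352A, at -0.98 (limma, adjusted p = 0.0166) and -1.08 (limma, adjusted p = 0.00658). In C352A against mock 3 of 15 fell (let-7b, let-7d and let-7e, named after their values were seen), beside 14.3% of all hairpins, with a median of -0.40 against -0.66. After centring on the median hairpin that median was 0.33 and none of these 3 passed, while mir-26b and let-7i were called higher, at 1.42 and 1.17 (limma, adjusted p = 0.0101 each). On equal totals let-7b, let-7d and let-7e all stayed lower, at -0.88, -1.27 and -0.88 (limma, adjusted p = 0.00895, 0.00129 and 0.00489). There let-7i was called higher, at 0.64 (limma, adjusted p = 0.0349). After centring on hairpins made without Microprocessor no member of the list passed, let-7d being at -1.10 (limma, adjusted p = 0.205). The let-7 copies in the list share reads, so these counts are not of separate measurements.

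In P351A minus WT the EZH2-repressing list was spread around 0 on the authors' scale, and the mir-101 hairpins were above all of it. The 15 had a median of -0.10, with 6 above 0 and 9 below, and ran from -3.16 to 0.54. Their median was 0.90 after centring on the median hairpin, 0.78 after centring on hairpins made without Microprocessor and 0.64 on equal totals. let-7i, one of the most abundant let-7 hairpins, was at -2.56 in this comparison and 3.05 in P351A with ALA over mock (limma, adjusted p = 8.58e-08). mir-26a-1, named after its values were seen because it was the lowest, had means of 4548 scaled reads in mock, 24402 in WT, 3503 in C352A, 2596 in P351A and 9978 in P351A with ALA.

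The ratio of hsa-mir-101-1 to another hairpin within a library does not depend on the scale factors. The first partner, mir-26a-1, was the lowest of its list in P351A minus WT and hsa-mir-101-1 was chosen for not being low there, so a high ratio in P351A follows from the choice of both and is a description only. Mock libraries had 9.89 to 13.4 reads per 100 reads of mir-26a-1, C352A libraries 7.01 to 11.5 and WT libraries 5.22 to 6.73. P351A libraries had 82.9 to 107 and P351A libraries with ALA 25.3 to 50.6. Against let-7a-1 the ratio varied less. C352A libraries had 3.52 to 3.91 reads per 100 reads of let-7a-1, WT libraries 4.57 to 5.08 and mock libraries 5.32 to 6.46. P351A libraries had 6.14 to 7.61 and those with ALA 5.81 to 11.9. Against mir-103a-2, the order was different again. Mock libraries had 20 to 23.2 reads per 100 reads of mir-103a-2 and C352A libraries 17.6 to 21.7. WT libraries had 11.5 to 14.9, P351A libraries 13.2 to 14.3 and those with ALA 10.2 to 16.2. P351A thus lay inside the range of WT and below mock. mir-103a was the name whose levels ran most like hsa-mir-101-1 over these same libraries (Pearson r = 0.990 for mir-103a-1). A ratio alike in P351A and WT follows from that likeness and is a description only. The height of the P351A ratio depended on the partner.

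**Figure D3:**
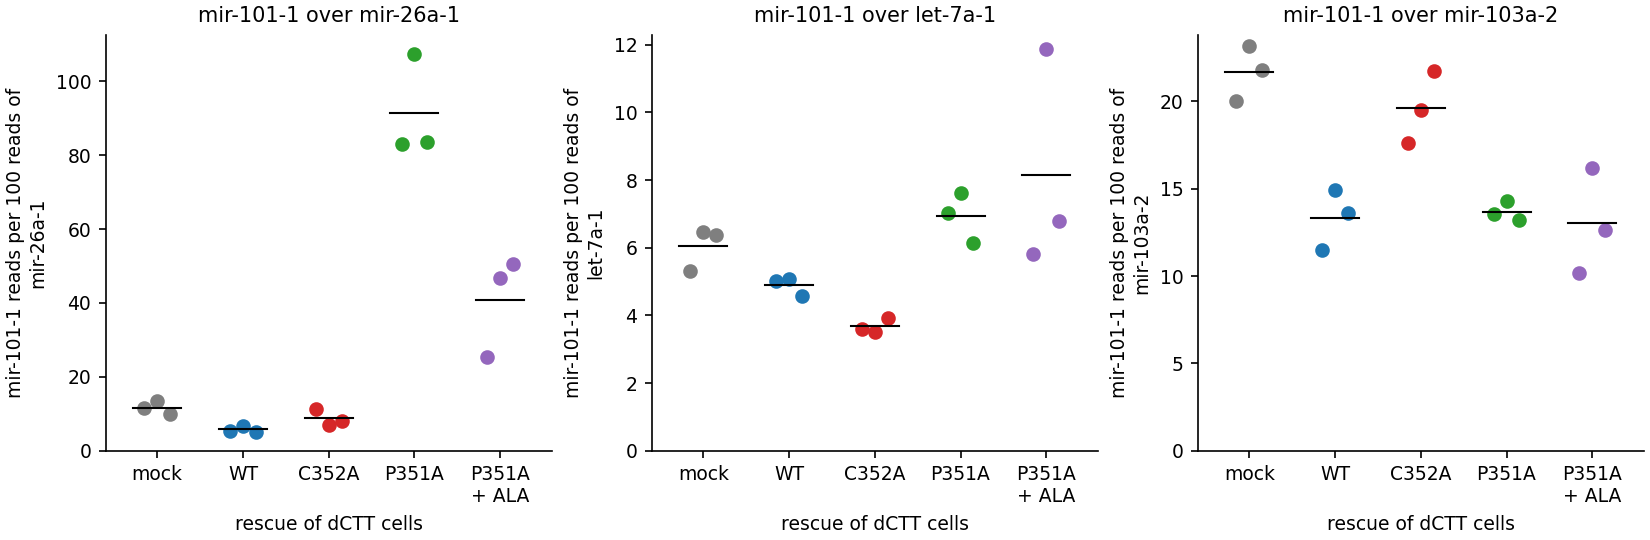
Reads of hsa-mir-101-1 per 100 reads of mir-26a-1, of let-7a-1 and of mir-103a-2 in each rescue library, a ratio within a library that no scale factor moves; points are libraries and lines are group means. Against mir-26a-1 the P351A libraries are at 82.9 to 107 and those with ALA at 25.3 to 50.6, which the choice of both hairpins favours. Against mir-103a-2 the P351A libraries at 13.2 to 14.3 lie within the WT range of 11.5 to 14.9, which the likeness of mir-103a to hsa-mir-101-1 favours.

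Hairpins cut without Microprocessor gave a check of scale. mir-320a, which Dicer receives without a Drosha cut, had means of 59852 scaled reads in mock, 65703 in WT, 63748 in C352A, 75177 in P351A and 91619 in P351A with ALA. It rose by 0.62 ± 0.09 in P351A with ALA over mock (limma, adjusted p = 3.77e-05), against 2.90 for hsa-mir-101-1. That rise held only on the authors' scale. After centring on the median hairpin mir-320a was at -0.23 and did not pass (limma, adjusted p = 0.306). On equal totals it was called lower, at -0.86 (limma, adjusted p = 1.4e-04). The list was not uniform: mir-484, made from a transcript start, rose by 2.55 in the same comparison (limma, adjusted p = 8.49e-04) but did not pass on equal totals (1.08, limma, adjusted p = 0.0843), and mir-3605, named for the lowest value, was at -0.72 and did not pass (limma, adjusted p = 0.0744). Over the 6 testable hairpins of this kind the median was 0.57 in that comparison, beside 0.87 for all hairpins. It was 0.05 in WT minus mock, beside 1.13 for all. In P351A minus WT it was -0.90, beside -0.95 for all, with 5 of 6 below 0 and a span from -1.63 to 0.19. The list is therefore only a limited check of scale.

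Hairpins whose levels ran most like hsa-mir-101-1 were ranked by Pearson r of log2(scaled reads + 1) over the 15 rescue libraries, which share depth and scale factors. Over the 133 names compared the median r was 0.606, and 22 names were above 0.9. The nearest were mir-103a-1 (r = 0.990) and mir-107 (r = 0.990), whose rows were nearly equal, then mir-660 (0.979), let-7f-1 (0.978), mir-31 (0.978) and let-7a-1 (0.966). mir-103a-1 had means of 2346 scaled reads in mock, 10502 in WT, 1479 in C352A, 17138 in P351A and 30491 in P351A with ALA. That is the same order as the pair, which the choice by r favours. mir-660 had 86.4, 220, 55.3, 347 and 481 in these groups, and mir-31, known to be raised in colorectal cancer, had 12683, 37973, 6282, 50064 and 73488. In C352A against mock mir-31 fell by 0.98 (limma, adjusted p = 0.0141). That call was lost at -0.26 after centring on the median hairpin (limma, adjusted p = 0.533). It was also lost at -0.61 after centring on hairpins made without Microprocessor (limma, adjusted p = 0.458). On equal totals it was kept, at -0.79 (limma, adjusted p = 0.00194). mir-103a-1 at -0.65 did not pass (limma, adjusted p = 0.0895).

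**Figure D4:**
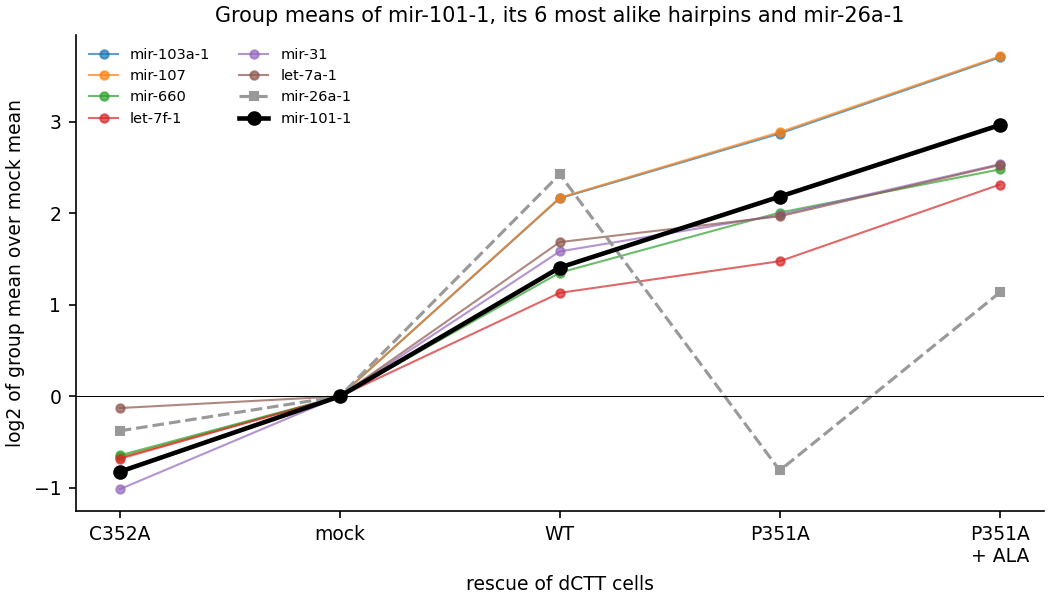
Group mean of scaled reads over the mock mean, on a log2 axis, for hsa-mir-101-1 (black), the 6 hairpins with the highest Pearson r to it (colours) and mir-26a-1 (dashed grey, added as a contrast after its values were seen), across the 5 rescue groups; each point is a mean of 3 libraries. The 6 alike hairpins keep the order C352A, mock, WT, P351A, P351A with ALA in their means, which their choice by r favours. The contrast mir-26a-1 goes from 24402 scaled reads in WT to 2596 in P351A.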

How the data were processed

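Small RNA of 17 to 30 nt was cut from a 15% urea gel after TRIzol extraction and made into TruSeq small RNA libraries, per the labels' protocols. The submitters' processing notes name cutadapt 1.14, Bowtie2 and hg38; their roles, how reads were assigned and how libraries were scaled were not found in the labels. The deposited columns of the DGCR8ΔCTT library and of mock library a hold whole read counts. The other deposited columns hold a scaled signal, in which every value was a whole multiple of 1 step per library (tolerance 0.001 of a read), so reads were recovered by dividing by that step; for the parental library, where no hairpin had a single read, the step was inferred from the spacing of the values. Reads can enter several hairpins, so depth is the sum of hairpin reads; it ran from 146023 to 2175294 in the rescue libraries. The tables were scaled separately and levels were not compared across them.

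Differences were fitted with limma 3.58.1 in R 4.3.3 on log2(value + 1), group only, over all 15 rescue libraries, with a variance trend and Benjamini-Hochberg adjustment over 336 hairpins with a mean of 10 or more; the threshold was 0.05, two-sided. The script was tested on simulated data. Alternatives used edgeR 4.0.16 and DESeq2 1.42.0 on recovered reads, and other scalings, filters, pseudocounts and samples. RNAfold was from ViennaRNA 2.7.2 and alignments from Biopython 1.88. Wilson and exact intervals were at 95% and cover counting error only.

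Named hairpins were the pair, the 6 most alike by r among hairpins at or above the median level, the neighbours of hsa-mir-101-1 in P351A minus WT, and up to 4 of the highest tested members of each list; those named after their values were seen are marked. The members, the lists and the tests were chosen with earlier results of these data known. Mock columns carry no replicate number that matches a label.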

Additional observations from a re-analysis of the deposited data

How the results depend on the processing

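For hsa-mir-101-1, every alternative run kept the direction and the call of the comparisons tested with limma: C352A minus mock ran from -0.89 to -0.09 (adjusted p 0.0553 to 0.942), P351A with ALA minus mock from 1.42 to 3.21 (3.45e-04 or lower) and P351A with ALA minus C352A from 2.04 to 4.02 (5.62e-05 or lower). Leaving out 1 library at a time gave -0.89 to -0.72, 2.65 to 3.21 and 3.46 to 4.02, and 0.65 to 1.09 for P351A minus WT. P351A minus WT was 1.82 after centring on the median hairpin, 1.71 after centring on hairpins made without Microprocessor, 1.57 on equal totals, 2.33 with edgeR and 1.88 with DESeq2. Parental over dCTT was 1.14 after subtracting the median level of each library and 1.29 on equal totals. Neither is a distance from the median of the log2 ratios, from which hsa-mir-101-1 differed by 0.0059.

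WT minus mock turned to -0.089 on equal totals (-0.090 for hsa-mir-101-2), the only 1 of 17 alternatives that reversed it; 13 kept it within 1 SD, and it was 0.64 after median centring. P351A with ALA minus P351A turned to -0.42 after median centring (-0.42 for hsa-mir-101-2), -0.88 after centring on hairpins made without Microprocessor (-0.88), -0.061 on equal totals (-0.061), -0.43 with edgeR (-0.43) and -0.10 with DESeq2 (-0.10); the cause was not tested. Scaling moves the median of all hairpins, so these values are relative to it.

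The count of calls in C352A minus mock was 50 (2 higher, 48 lower) and became 20 with no filter on low values, 16 after median centring (13 higher, 3 lower), 7 after centring on hairpins made without Microprocessor, 18 with edgeR (13 higher, 5 lower), 24 with DESeq2 (17 higher, 7 lower) and 23 to 41 without 1 library (31, 24 and 23 without mock a, b and c; 23 and 28 without C352A 1 and 3). Within the mock, WT and C352A libraries alone, chosen after seeing the data, it was 7, and hsa-mir-101-1 was at -0.81 (adjusted p = 0.149). In P351A with ALA minus mock, 166 higher and 30 lower became 85 and 95 after median centring, 75 and 68 after centring on hairpins made without Microprocessor, 51 and 144 on equal totals, 80 and 98 with edgeR and 87 and 92 with DESeq2. In P351A with ALA minus C352A, 223 higher and 11 lower became 77 and 96, 104 and 45 (149 in all), 73 and 100, 84 and 94, and 90 and 88.

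With the replicate number as a block, P351A with ALA minus C352A was 3.71 (adjusted p = 4.97e-11). Same-numbered libraries of these groups did not deviate together (r of 0.021, -0.055 and -0.005), but 3 pairs are too few to settle whether the samples were paired. The 3 same-numbered pairs of WT and C352A had r of 0.425, 0.185 and 0.289, while differently numbered pairs ran from -0.398 to 0.273, so pairing was not settled. C352A minus WT was -2.17 with and without the block. With 1 library of each group per number, a block cannot change either difference of group means. Over all 18 same-numbered pairs 6 were above 0.1. Mock libraries carry no number and could not be blocked. Depth limits mock b and C352A 2 most, with 157 and 132 reads of hsa-mir-101-1.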
